A study of Mus musculus with 4 samples.

Results

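The Gimap genes (GTPase of immunity-associated protein) encode a family of 8 GTPases in the mouse, Gimap1, Gimap3, Gimap4, Gimap5, Gimap6, Gimap7, Gimap8 and Gimap9. All 8 were found by symbol among the 32285 genes measured, and all 8 passed the filter on low counts. They were read in single-cell RNA libraries of CD8 T cells sorted from B16F10 melanomas, 2 samples labelled sgArid1a and 2 labelled sgScr. Arid1a encodes a DNA-binding subunit of the BAF (SWI/SNF) chromatin remodelling complex, and Scr is the label of the control guide. All 4 samples came from C57BL/6J mice 6 to 8 weeks old. The labels do not say whether the guide was carried by the T cells or by the tumour, nor whether the 2 samples of a group came from separate animals. The p-values below therefore measure the spread between samples, which may be technical.

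GIMAP proteins are found mainly in lymphocytes, where several sit on internal membranes such as those of the endoplasmic reticulum, mitochondria and lysosomes. Loss of some members, Gimap5 above all, leaves mice and rats short of mature T cells, and the family is best known for its part in the survival of T cells.

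After filtering, 38261 T cells remained, 10695 and 12772 in the sgArid1a samples and 7636 and 7158 in the sgScr samples, with median depths of 2407 and 4024.5 UMIs per cell in sgArid1a and 3750 and 3597 in sgScr. The summed UMIs per sample were 39285383 and 81450019 in sgArid1a and 35642152 and 32209615 in sgScr. A UMI is a molecular tag that counts each captured transcript once, and levels are given as UMIs per 1000000 UMIs of the sample or cell state (CPM). In this 5-prime assay a UMI stands for a transcript whatever its length, so CPM is not scaled by gene length. Between 78 and 231 cell barcodes were shared by any pair of libraries. The T cell identity genes (6 listed) summed to 5275 and 5302 CPM in sgArid1a and 4891 and 4955 CPM in sgScr. Arid1a itself stood at 74.1 and 72.6 CPM in sgArid1a and at 85.2 and 93.6 CPM in sgScr, a log2 difference of -0.26 ± 0.06 (SE; edgeR adjusted p = 0.00419). That call was lost without sgScr replicate 2, and a guide can disable a gene without lowering its RNA, so the level is a weak check of the labels.

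Cell states differed in share between the groups, and this bears on every level taken over all cells. Cells that carried cell-cycle genes (cycling-like) were 9.85 and 10.5% of T cells in sgArid1a and 3.10 and 3.16% in sgScr. They held more UMIs each than the other cells and gave 29.9 and 32.5% of all UMIs in sgArid1a and 12.2 and 11.99% in sgScr. Exhausted-like cells were 10.6 and 10.8% in sgArid1a and 4.64 and 4.95% in sgScr. Naive/central memory-like cells were 16.8 and 18.6% in sgArid1a and 49.8 and 48.4% in sgScr.

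Over all T cells, Gimap7 was higher in sgArid1a, Gimap6, Gimap8, Gimap3 and Gimap1 were lower, and Gimap4, Gimap5 and Gimap9 did not pass the test. This was 1 of 8 members called higher, against 28% of all 12792 genes tested, and 4 of 8 called lower, against 26.4% of all genes. With 54.4% of all genes called in either direction, the number of members called was not unusual for this comparison. The groups did not overlap in 7 of 8 members, as in 76.1% of all genes. The median log2 difference was -0.14 over the members and -0.02 over all genes tested. Together the members made up 0.183 and 0.177% of UMIs in sgArid1a and 0.1997 and 0.2018% in sgScr.

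Gimap7 had 271 and 244 CPM in sgArid1a, against 203 and 206 CPM in sgScr. Both sgArid1a samples lay above both sgScr samples, and the log2 difference was 0.36 ± 0.07 (SE; edgeR adjusted p = 0.00091). In humans, GIMAP7 is known to pair with other GIMAP proteins and speed their GTP hydrolysis. By mean level Gimap7 was number 3 of the 8 members in sgArid1a and number 6 in sgScr. Its call held in all 16 settings in which it was computed, with log2 differences of 0.25 to 0.57 and adjusted p-values up to 0.00953.

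Gimap6, which is known to associate with autophagy proteins of the GABARAP group, had 246 and 240 CPM in sgArid1a, against 319 and 332 CPM in sgScr. The groups were apart, with a log2 difference of -0.39 ± 0.06 (SE; edgeR adjusted p = 0.000166). Gimap8, a large member with several GTPase domains in 1 chain, was the least abundant at 62.8 and 62.9 CPM in sgArid1a, against 79.0 and 84.2 CPM in sgScr. Its log2 difference was -0.35 ± 0.06 (SE; edgeR adjusted p = 0.000304). Gimap3, the most abundant member and a close relative of Gimap5, had 358 and 345 CPM in sgArid1a, against 434 and 440 CPM in sgScr. All sgArid1a values lay below the sgScr values, and the log2 difference was -0.28 ± 0.07 (SE; edgeR adjusted p = 0.00262). Gimap1, which mature T and B cells need in order to persist in mice, had 252 and 262 CPM in sgArid1a, against 302 and 299 CPM in sgScr. The difference was -0.20 ± 0.06 on the log2 scale (SE; edgeR adjusted p = 0.0141). The call of Gimap1 was lost without sgScr replicate 1 (edgeR adjusted p = 0.213) and without sgScr replicate 2 (0.0887), which left 3 members lower.

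Gimap5, the member whose loss causes lymphopenia, had 191 and 196 CPM in sgArid1a and 215 and 204 CPM in sgScr. The groups did not overlap, but the log2 difference of -0.09 did not pass the test (edgeR adjusted p = 0.261). Gimap4, linked in mice to the pace of T cell death, had 338 and 326 CPM in sgArid1a and 335 and 340 CPM in sgScr, which overlapped (log2 difference 0.01, edgeR adjusted p = 0.944). Gimap9 had 110 and 99.5 CPM in sgArid1a and 110 and 111 CPM in sgScr. Its log2 difference was -0.05 (edgeR adjusted p = 0.577), and it was called lower only without sgArid1a replicate 1 (log2 -0.155, edgeR adjusted p = 0.0151). Among all genes the members ranked from number 281 (Gimap3) to number 1748 (Gimap8) by level.

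**Figure D1:**
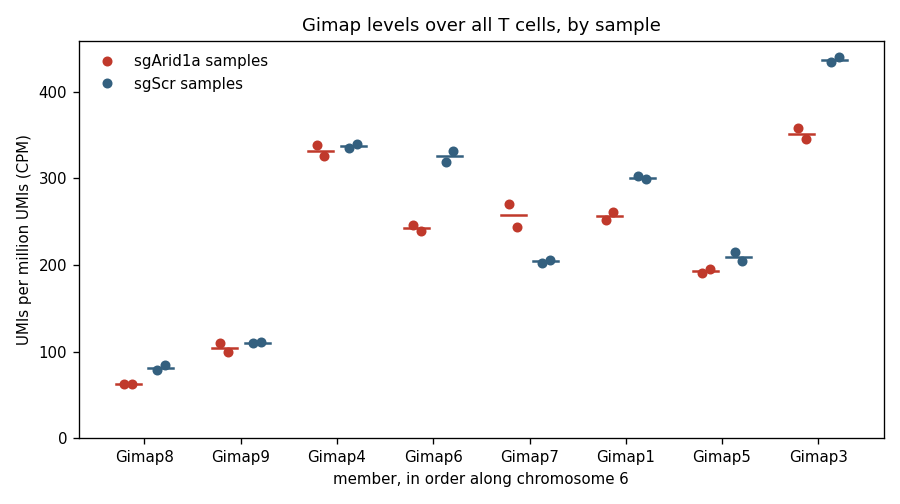
Level of each Gimap gene summed over all T cells of a sample, in CPM, with members in their order along chromosome 6. Points are samples (2 per group, sgArid1a left of sgScr) and lines are group means. Gimap7 sits at 271 and 244 in sgArid1a, above 203 and 206 in sgScr, while Gimap6 sits at 246 and 240, below 319 and 332.

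Markers of other cell types were low beside the T cell genes but not equal between groups. Some lists were higher in sgArid1a. The 7 myeloid markers summed to 167 and 172 CPM in sgArid1a and 122 CPM in both sgScr samples. The 6 dendritic cell and MHC class II markers summed to 107 and 106 CPM in sgArid1a and 40.6 and 53.4 CPM in sgScr. The 3 markers of CD4 and regulatory T cells summed to 21.4 and 19.9 CPM in sgArid1a and 7.97 and 10.8 CPM in sgScr, and the 4 of gamma-delta T cells to 17.6 and 16.9 CPM in sgArid1a and 7.24 and 7.11 CPM in sgScr. Others were lower in sgArid1a. The 3 endothelial markers, 1 of them at 0 in every sample, summed to 17.9 and 17.3 CPM in sgArid1a and 34.6 and 36.4 CPM in sgScr, and the 4 NK cell markers to 52.4 and 52.6 CPM in sgArid1a and 58.3 and 62.7 CPM in sgScr. The 5 melanoma genes, none of them at 0 in every sample, summed to 0.993 and 1.04 CPM in sgArid1a and 0.870 and 0.621 CPM in sgScr. Fibroblast, platelet and red cell markers summed to at most 1.29 CPM in any sample. Some of these markers were raised in T cell states, so the sums do not by themselves show other cells. Exhausted-like cells raised Cd68 and Cst3 (myeloid), H2-Aa, H2-Ab1 and Cd74 (MHC class II) and Tcrg-C2 (gamma-delta). Cycling-like cells raised Cst3, H2-Ab1, Cd74, Tcrg-C2 and Il2ra, a marker of the CD4 and regulatory T cell list. Both naive/central memory-like clusters raised Pecam1, an endothelial marker. What the state shares add to these sums, and any other cells to the member levels, was not tested.

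Across cell states the summed family level varied by 2.38 times, and the members did not all follow the same order. States were clusters of cells found without the Gimap genes and named by hand from marker genes. A "-like" name needed at least 3 raised markers of its list, as memory/transitional-like cells had (3 of 7). Clusters 3, 5 and 10 met that count but kept a number by judgement. Cluster 5 raised 6 of 7 short-lived effector and 6 of 7 memory/transitional markers, cluster 10 raised 5 naive and 5 progenitor exhausted markers, and cluster 3 raised 3 progenitor exhausted markers. Since clusters are made from the expression of the same cells, levels across states are a description with no test. Values are means of the 4 samples ± SD. The sum of the 8 members was highest in cluster 5 (led by Gzma, Ccr2 and Klrg1) at 2989 ± 60.8 CPM, and lowest in cycling-like cells at 1258 ± 112 CPM. In cluster 5 the samples held 3071 and 2996 CPM in sgArid1a and 2932 and 2956 CPM in sgScr. In cycling-like cells they held 1164 and 1168 CPM in sgArid1a and 1309 and 1392 CPM in sgScr, so every sample had the same highest and lowest state.

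Between these ends lay Ly49-positive-like cells at 2722 CPM and memory/transitional-like cells at 2702 CPM, whose samples overlapped. Interferon-stimulated-like cells stood at 2248 CPM and naive/central memory-like cluster 1 at 2209 CPM, and these overlapped too. Cluster 10 (2165 CPM), heat shock-like cells (1991 CPM), cluster 3 (1951 CPM) and exhausted-like cells (1851 CPM) followed, with each sample range overlapping the next. The second naive/central memory-like cluster, marked by Ccr9 and Itgae, was lower at 1517 CPM, and early activated-like cells were at 1355 CPM, with samples that overlapped those of cycling-like cells. The 2 naive clusters thus stood apart in family level.

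Per cell the order was another. Cycling-like cells held 21.0 member UMIs per cell and exhausted-like cells 15.4, against 5.95 and 5.09 in naive clusters 1 and 2. Total UMIs per cell averaged 16592 in cycling-like cells, 8304 in exhausted-like cells and 2699 and 3346 in the 2 naive clusters. Cycling-like cells thus had the lowest member share of their UMIs and the most member UMIs per cell. Member UMIs per cell in sgArid1a replicate 1 lay below the other libraries in most states, and this library also had the lowest median depth.

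**Figure D2:**
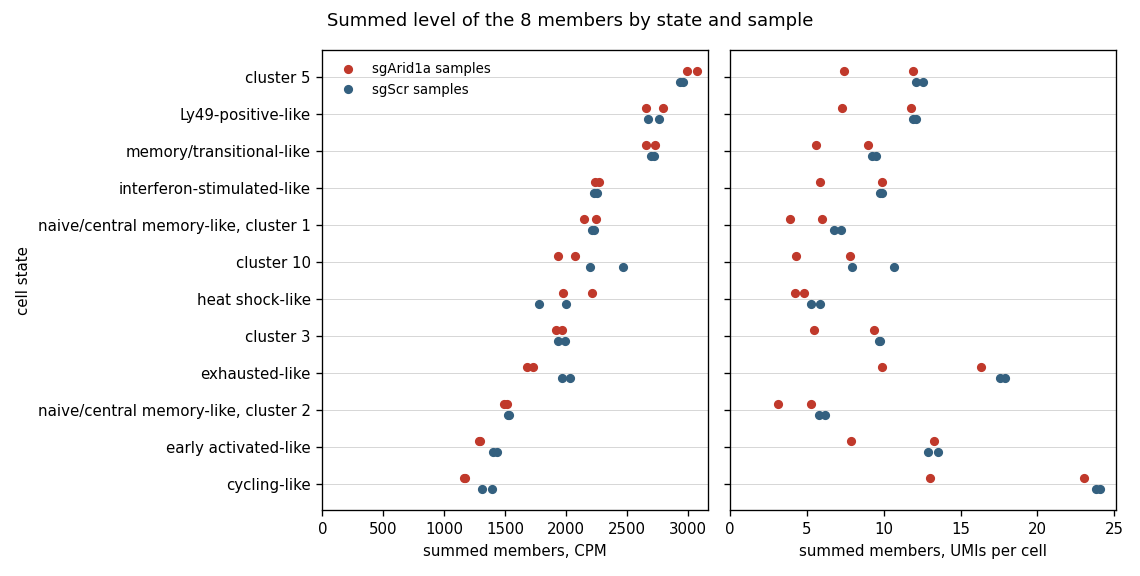
Summed level of the 8 members in each cell state, as CPM (left panel) and as UMIs per cell (right panel), with 1 point per sample and sgArid1a drawn above sgScr. States run from the highest to the lowest mean CPM: cluster 5 leads at 2989 CPM and cycling-like cells close at 1258 CPM, while per cell the cycling-like cells hold the most at 21.0 UMIs.

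Gimap7 varied most between states. It ran from 478 ± 42.6 CPM in cluster 5 to 74.0 ± 8.94 CPM in naive cluster 2, a ratio of 6.45. Exhausted-like cells were number 2 in its order at 377 CPM, and cycling-like cells, the lowest state of Gimap1, Gimap3, Gimap5 and Gimap6, were number 6 at 238 CPM. Gimap3 ran the other way in those cells, with 649 CPM in memory/transitional-like cells and 158 CPM in cycling-like cells, a ratio of 4.12. Gimap6 had 444 CPM in Ly49-positive-like and 136 CPM in cycling-like cells, and Gimap5 had 302 and 124 CPM in the same states. Gimap4 had 588 CPM in cluster 5 and 186 CPM in naive cluster 2, which are also the highest and lowest states of Gimap7. Gimap1 varied least, by 1.73 times, with 391 CPM in naive cluster 1 and 225 CPM in cycling-like cells.

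Gimap8 had both its extremes, and Gimap9 its highest level, in the smallest states. Gimap8 was highest in cluster 10 at 164 CPM (480 cells), where the samples held 233 and 117 CPM in sgArid1a and 142 and 162 CPM in sgScr. Its lowest state was heat shock-like at 37.6 CPM, and Gimap9 was highest in that same state at 218 CPM (297 cells). There the lowest sample of Gimap9, at 191 CPM, lay above the highest of the next state, at 167 CPM. Gimap9 was lowest in early activated-like cells at 73.1 CPM (1129 cells). With few cells in cluster 10 and the heat shock-like state, levels there rest on few UMIs.

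Over the 12 states, log2 levels of Gimap3 and Gimap6 had a Pearson r of 0.962, the highest of any pair of members, and those of Gimap4 and Gimap7 had 0.805. Gimap7 had a median r of 0.237 with the other members and its lowest with Gimap6, at 0.118. States share libraries and depth, so these values describe and are given no p. Outside the family, the genes with the pattern most like the summed members over the 12 states, among 5280 genes that averaged 20 CPM or more, were Ifngr1 (a chain of the interferon-gamma receptor, r = 0.908), Scamp3 (0.902), Smpdl3a (0.890), Nck1 (an adaptor protein, 0.888) and Irf2bpl (0.863).

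**Figure D3:**
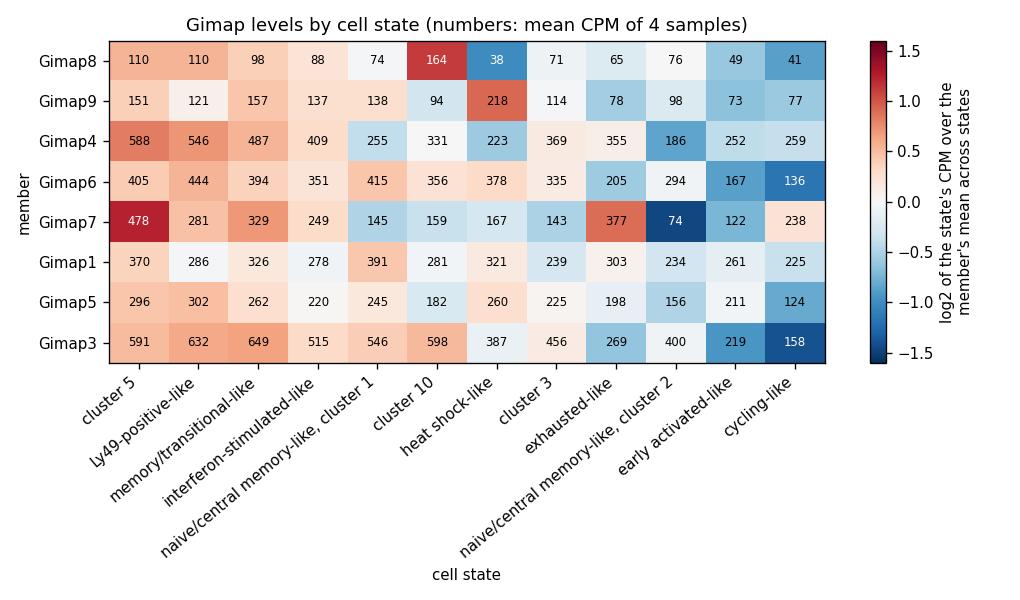
Level of each Gimap gene in 12 cell states. Numbers are mean CPM of the 4 samples, and colour is the log2 ratio of that level to the member's mean over states (red above, blue below). States run from the highest summed level on the left to the lowest on the right. Gimap7 is at 377 CPM in exhausted-like and 238 CPM in cycling-like cells, where Gimap3 is at 269 and 158 CPM.

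The lower levels of Gimap1, Gimap3, Gimap6 and Gimap8 over all T cells were closer to 0 without cycling-like cells, and the higher level of Gimap7 was not lost. Leaving out cycling-like cells does not remove the difference in the shares of naive and exhausted-like cells given above. Without cycling-like cells the log2 difference of Gimap7 was 0.50 (edgeR adjusted p = 0.000104), against a share of 22.5% of all genes called higher. Gimap6 was at -0.19 (edgeR adjusted p = 0.0293) and Gimap8 at -0.19 (edgeR adjusted p = 0.0192), against a share of 21.2% of all genes called lower. Gimap1 at -0.11 (edgeR adjusted p = 0.174) and Gimap3 at -0.07 (edgeR adjusted p = 0.414) no longer passed. The median over the members was then -0.01, beside -0.02 over all genes. Exhausted-like cells were then left out too, a choice made after the values were seen. No member was called lower, Gimap3 stood at 0.07, and Gimap7 and Gimap4 (0.22) were called higher. The share of all genes called was not counted in this setting.

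Summed CPM gives cells with more RNA more weight. When each cell was thinned to 1500 UMIs, all cells weighed the same. Then 0 members were called lower and Gimap7 alone was called higher, at a log2 difference of 0.52. How many of all genes were called in thinned cells was not counted, so these member counts have no share to stand beside. When each sample's states were weighted by 1 common mix, which gives a ratio with no test, Gimap3 stood at -0.01 on the log2 scale (-0.31 over all cells), Gimap6 at -0.11 (-0.42) and Gimap8 at -0.17 (-0.37). Gimap1 stood at -0.10 (-0.23) and Gimap7 at 0.17 (0.33). Gimap4 stood at -0.09, with 349 and 337 CPM in sgArid1a and 365 CPM in both sgScr samples, on the other side of 0 from its call without cycling-like and exhausted-like cells. In that mix Gimap7 had 254 and 226 CPM in sgArid1a and 213 CPM in both sgScr samples, so the groups stayed apart at a smaller distance.

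**Figure D4:**
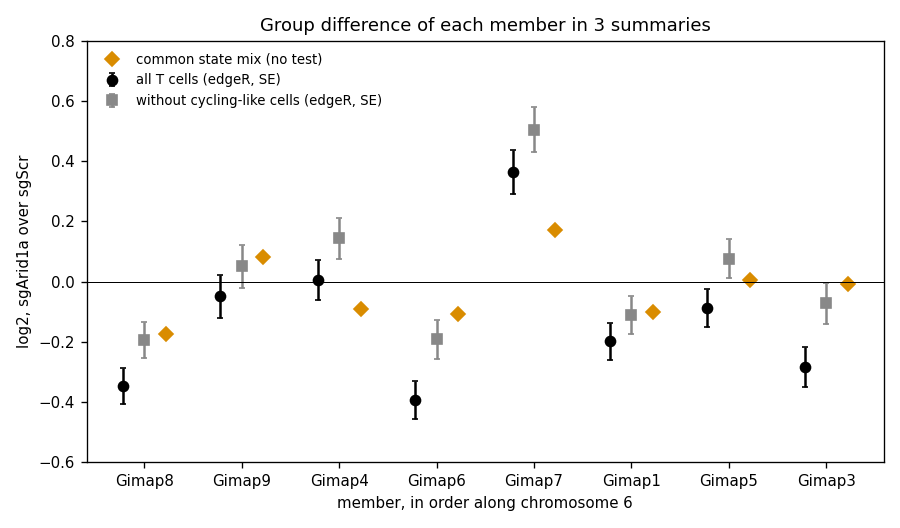
Log2 difference, sgArid1a over sgScr, of each member over all T cells (circles), without cycling-like cells (squares) and with states weighted by 1 common mix (diamonds, no test). Bars are standard errors from edgeR. Gimap3 is at -0.28 in all T cells and -0.01 in the common mix, and Gimap7 stays above 0 in each, at 0.36, 0.50 and 0.17. Diamonds are ratios of plain CPM, while circles and squares are edgeR values with TMM scaling. As plain CPM ratios over all T cells, Gimap3 was at -0.31 and Gimap7 at 0.33.

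Over all T cells, whose state mix differs between groups, the share of cells with at least 1 UMI showed the same order for Gimap7 and Gimap6. In thinned cells Gimap7 was detected in 31.2 and 29.7% of sgArid1a cells and 23.1 and 22.3% of sgScr cells, and unthinned in 48.2 and 58.0% of sgArid1a and 42.8 and 41.9% of sgScr cells. Gimap6 was detected in 35.1 and 37.2% of thinned sgArid1a cells and 41.1 and 41.6% of thinned sgScr cells. Within states the order of Gimap7 did not always hold. Thinned cluster 3 cells showed it in 22.4 and 20.7% in sgArid1a and 16.6 and 17.5% in sgScr. Thinned cluster 10 cells, which were few, showed it in 18.2 and 20.8% in sgArid1a and 19.8 and 25.0% in sgScr. Thinning left out 1767 and 331 cells in sgArid1a and 191 and 235 in sgScr. At least 1 member was seen in 91.7 and 92.3% of thinned sgArid1a cells and 93.4 and 93.1% of thinned sgScr cells. The only other cells were a cluster with B cell and MHC class II genes (50 thinned cells, median 4983 UMIs before thinning, against 3463 in T cells), where Gimap7 was seen in 24% and Gimap6 in 40%. B cells also use Gimap genes and T cell RNA was present, so these cells give no background level of free RNA.

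A thinned T cell showed 2.39 and 2.46 members on average in sgArid1a and 2.44 and 2.45 in sgScr, with no separation between groups. Within cycling-like cells the averages were 1.58 in both sgArid1a samples and 1.83 and 1.98 in sgScr. Within exhausted-like cells they were 2.23 and 2.25 in sgArid1a and 2.70 and 2.51 in sgScr.

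Within classes of 1 state few members were called, all of them Gimap7 or Gimap6. The 8 members were tested in the 10 classes with at least 50 cells in every sample, which is 80 pairs of gene and class, and 18 pairs (22.5%) had an unadjusted p under 0.05, against 17.9% of all pairs of gene and class. Of the 80, 3 were called higher in sgArid1a, where 2.92% of all gene and class pairs were, and 2 lower, where 1.61% were. These counts are near those shares, so the number of members called within classes was not unusual. All 3 higher calls were Gimap7, and both lower calls were Gimap6. The count of higher calls was 7 without sgArid1a replicate 2 and 1 without sgScr replicate 1, and the count of lower calls was 5 without either sgArid1a sample and 0 without sgScr replicate 2.

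In cluster 3 (led by Cd163l1, Gzmm and Id3), Gimap7 had 180 and 154 CPM in sgArid1a, against 117 and 120 CPM in sgScr. The log2 difference was 0.54 ± 0.10 (SE; edgeR adjusted p = 0.00145), where 6.05% of genes were called higher, and it passed with any 1 sample left out. In Ly49-positive-like cells Gimap7 had 348 and 298 CPM in sgArid1a, against 233 and 244 CPM in sgScr, a difference of 0.48 ± 0.11 (SE; edgeR adjusted p = 0.00623), where 2.66% of genes were called higher. In naive/central memory-like cells it had 123 and 112 CPM in sgArid1a, against 98.3 and 92.3 CPM in sgScr. That difference was 0.35 ± 0.08 (SE; edgeR adjusted p = 0.021), where 2.62% of genes were called higher. The calls in Ly49-positive-like and in naive/central memory-like cells were each lost when either sgScr sample was left out, with adjusted p-values up to 0.162 and 0.478 over the alternatives of each.

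The naive/central memory-like class joined the 2 clusters that differ in Gimap7 level, and cluster 1 held 48.8 and 58.5% of it in sgArid1a and 48.4 and 47.3% in sgScr. Tested apart, which was decided after the values were seen, neither cluster passed. In cluster 1 Gimap7 had 172 and 141 CPM in sgArid1a and 143 and 125 CPM in sgScr, which overlapped (log2 0.25 ± 0.10, SE, edgeR adjusted p = 0.179, where 2.04% of genes were called higher). In cluster 2 it had 83.7 and 79.3 CPM in sgArid1a and 64.7 and 68.5 CPM in sgScr, which did not overlap. The log2 difference there was 0.33 ± 0.10 (SE; edgeR adjusted p = 0.0734), where 0.999% of genes were called higher. In thinned cells of cluster 1 Gimap7 was detected in 18.3 and 17.5% in sgArid1a and in 20.2 and 18.0% in sgScr, the other order. For cluster 2 the shares were 10.5 and 10.1% in sgArid1a and 8.59 and 9.54% in sgScr.

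In exhausted-like and cycling-like cells the values of Gimap7 lay on the other side. Exhausted-like cells had 371 and 334 CPM of Gimap7 in sgArid1a and 405 and 399 CPM in sgScr, a log2 difference of -0.13 ± 0.08 that did not pass (SE; edgeR adjusted p = 0.355). Cycling-like cells had 232 and 208 CPM in sgArid1a and 253 and 259 CPM in sgScr, at -0.14 ± 0.09 (SE; edgeR adjusted p = 0.37). In both states no sgArid1a value reached the sgScr values, the reverse of 7 of the other 8 classes. Gimap7 passed the test in 3 of those 7. Such separation is common with 2 samples a group, as 76.1% of all genes showed it over all T cells. The share of all genes that show it within a class was not counted. In early activated-like cells the groups overlapped.

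Gimap6 was called lower in these same 2 states. They are alike in part, since cycling-like cells also raised 10 of 11 exhausted markers. Exhausted-like cells had 181 and 174 CPM in sgArid1a, against 225 and 239 CPM in sgScr, a log2 difference of -0.33 ± 0.08 (SE; edgeR adjusted p = 0.0113), where 4.47% of genes were called lower. Cycling-like cells had 115 and 120 CPM in sgArid1a, against 144 and 164 CPM in sgScr, a difference of -0.31 ± 0.09 (SE; edgeR adjusted p = 0.0435), where 2.57% of genes were called lower. Both calls were lost without sgScr replicate 2, at adjusted p-values of 0.129 and 0.434. In naive/central memory-like cells Gimap6 had 332 and 360 CPM in sgArid1a and 344 and 362 CPM in sgScr, which overlapped.

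Gimap8 had a log2 difference below 0 in 10 of 10 classes and passed in none. It ran from -0.30 in exhausted-like cells to -0.01 in interferon-stimulated-like cells. For cluster 10 the edgeR value was -0.06. Its mean CPM there lay on the other side, at 175 in sgArid1a and 152 in sgScr, and the samples overlapped. In exhausted-like cells Gimap8 had 53.1 and 60.5 CPM in sgArid1a and 75.7 and 70.8 CPM in sgScr (edgeR adjusted p = 0.0755). Gimap9 was above 0 in 9 of 10 classes, Gimap1 in 2 and Gimap4 in 3, with no call in any of them.

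**Figure D5:**
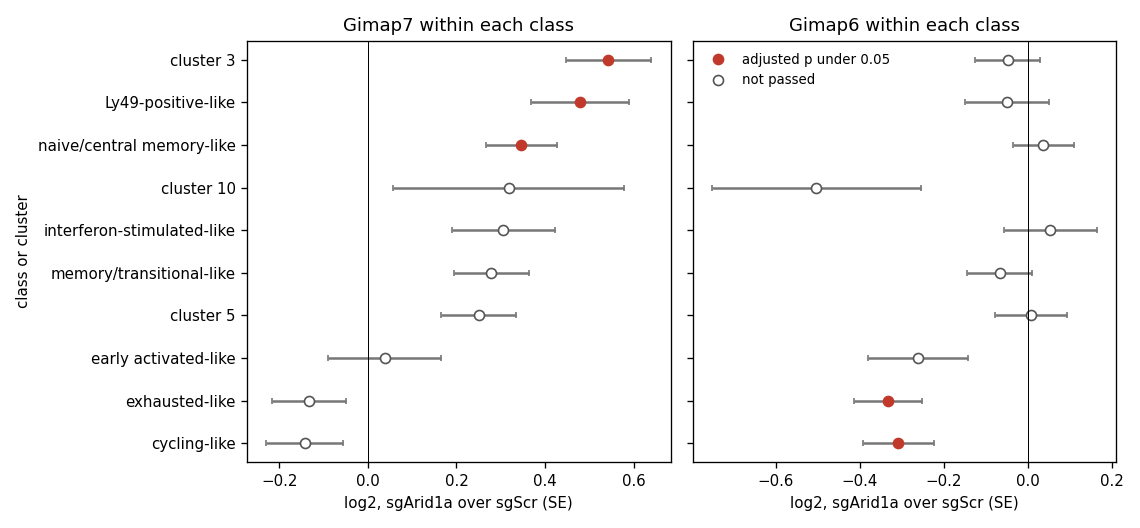
Log2 difference, sgArid1a over sgScr, of Gimap7 (left panel) and Gimap6 (right panel) within each of 10 classes, with standard errors from edgeR. Filled points passed an adjusted p of 0.05. Gimap7 lies at 0.54 in cluster 3 and at -0.14 in cycling-like cells, and Gimap6 lies at -0.33 and -0.31 in exhausted-like and cycling-like cells.

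Whether the group difference itself depended on the state was tested as an interaction with the sample as a block. Between naive/central memory-like and memory/transitional-like cells, the 2 classes with most cells, no member was called by edgeR or by DESeq2, where 1.3% of genes were called. At an unadjusted p under 0.05 there were 2 members, Gimap1 and Gimap6, with edgeR adjusted p-values of 0.389 and 0.457. After these values were seen, the naive/central memory-like class was also set against exhausted-like and cycling-like cells. Against exhausted-like cells 5 members had a higher group difference in the naive class, where 3.2% of genes did. Gimap7 differed by 0.49 ± 0.07 on the log2 scale (SE; edgeR adjusted p = 7.64e-06), and Gimap6 by 0.38 ± 0.06 (SE; edgeR adjusted p = 0.000224). The calls of the other 3, Gimap1, Gimap3 and Gimap5, were each lost under at least 1 alternative. Against cycling-like cells, where 2.12% of genes had a higher group difference in the naive class, Gimap7 differed by 0.49 ± 0.08 (SE; edgeR adjusted p = 3.24e-07) and Gimap6 by 0.33 ± 0.07 (SE; edgeR adjusted p = 0.000672). That call of Gimap6 was lost with DESeq2, without sgArid1a replicate 2 and without sgScr replicate 2, with adjusted p-values up to 0.149. These comparisons were chosen for the pattern they test, and the naive class differs in its cluster mix as given above. Both use the naive class, and cycling-like cells also raised exhausted markers, so the 2 comparisons are not independent.

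Cells of receptor segments that were frequent in sgArid1a showed the level of the family beside their share of cycling-like cells. Trbv13-1 cells (1031 and 1350 in sgArid1a, 458 and 437 in sgScr) had a summed member level of 1418 and 1420 CPM in sgArid1a and 1969 and 2010 CPM in sgScr. Trbv20 cells numbered 609 and 790 in sgArid1a and 160 and 138 in sgScr. Their summed level was 1499 and 1496 CPM in sgArid1a and 2063 and 1987 CPM in sgScr. Cells of all other Trbv segments had 1952 and 1917 CPM in sgArid1a and 1966 and 1987 CPM in sgScr, so in sgScr the 3 kinds of cell lay close together. Cycling-like cells made up 30.8 and 32.2% of Trbv13-1 cells in sgArid1a and 3.93 and 3.89% in sgScr. They made up 31.0 and 30.5% of Trbv20 cells in sgArid1a and 0.625 and 2.17% in sgScr, where such cells were few. Of the others they made up 6.83 and 6.41% in sgArid1a and 3.78 and 3.94% in sgScr. Cells with no assigned Trbv segment are in none of these kinds. Without Trbv13-1 and Trbv20 cells, 2 members were called lower over all T cells and Gimap7 remained higher at 0.34. Here too the share of all genes called was not counted.

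The 8 genes lie side by side on chromosome 6, in the order Gimap8, Gimap9, Gimap4, Gimap6, Gimap7, Gimap1, Gimap5 and Gimap3 (GRCm38, chr6:48647234-48770851, 124 kb in GENCODE M21). Gimap6 and Gimap3 are on the minus strand and the others on the plus strand. Gimap7 (chr6:48718621-48724636), the member that was higher, lies between Gimap6 (chr6:48701582-48708225) and Gimap1 (chr6:48739054-48743795), which were lower over all T cells. The antisense transcript Gimap1os overlaps Gimap1 and was lower too, at 25.2 and 21.6 CPM in sgArid1a and 28.6 and 29.4 CPM in sgScr (log2 -0.29 ± 0.09, SE, edgeR adjusted p = 0.0115). Without cycling-like cells Gimap1os did not pass (edgeR adjusted p = 0.291). The sources used here do not state the strand setting of the counting, so reads of Gimap1 and Gimap1os may be mixed. A read-through gene model, Gm28053, overlaps Gimap7, Gimap1 and Gimap5 and has no row in the counts. Of the 60-base stretches of their transcripts, 5.36% of those of Gimap3 and 5.33% of those of Gimap5 also occur in another gene, mainly in each other. The corresponding shares were 5.28% for Gimap1, 0.962% for Gimap7 and 0 for Gimap4, Gimap6, Gimap8 and Gimap9.

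The genes within 500 kb of the cluster were read beside it. Of 52 annotated there, 31 were in the files and 17 were tested, with 2 higher and 3 lower in sgArid1a, against 28% and 26.4% of all genes, and a median log2 difference of -0.10. Malsu1 (0.32) and Repin1 (0.67) were higher, and Krba1 (-0.70), Gimap1os and Lrrc61 (-0.24) were lower.

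Promoters are printed for Gimap7, Gimap6 and Gimap8, the member called higher and the pair with the largest falls over all T cells, to show the letters at the starts of neighbouring genes whose levels differed in opposite directions. Each is the 250 bases before the RefSeq start of the gene (GRCm38.p6), 5′ to 3′ on the gene's own strand, with capitals on the ETS core GGAA or its reverse complement TTCC.
Gimap7, chr6:48718371-48718620, plus strand: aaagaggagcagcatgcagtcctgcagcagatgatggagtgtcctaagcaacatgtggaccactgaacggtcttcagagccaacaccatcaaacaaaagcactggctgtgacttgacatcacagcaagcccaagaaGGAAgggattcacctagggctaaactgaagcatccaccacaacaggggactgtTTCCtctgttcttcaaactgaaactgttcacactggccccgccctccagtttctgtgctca
Gimap6, chr6:48708245-48708494, minus strand: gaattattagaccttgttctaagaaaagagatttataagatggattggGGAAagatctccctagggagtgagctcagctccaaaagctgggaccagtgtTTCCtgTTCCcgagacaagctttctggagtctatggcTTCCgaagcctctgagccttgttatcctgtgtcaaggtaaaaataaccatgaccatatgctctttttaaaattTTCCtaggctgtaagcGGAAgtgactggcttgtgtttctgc
Gimap8, chr6:48646984-48647233, plus strand: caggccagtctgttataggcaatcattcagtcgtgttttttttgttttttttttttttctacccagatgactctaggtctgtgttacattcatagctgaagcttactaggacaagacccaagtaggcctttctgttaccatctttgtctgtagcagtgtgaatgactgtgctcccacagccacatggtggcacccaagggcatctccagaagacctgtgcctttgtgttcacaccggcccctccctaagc
The Gimap7 promoter held 2 ETS cores, that of Gimap6 held 6 and that of Gimap8 held 0. For Gimap8, RefSeq also lists a later start, whose 250 bases held 3. ETS cores are common: 93.4% of 32851 promoters of the same length held at least 1, with a median of 3, and 8 of the 9 listed Gimap promoters did. The RUNX motif TGTGGT was found in 3 of 9, including Gimap7, and in 14.0% of all promoters. GTAAACA (FOXO) was found in 1 of 9, that of Gimap3, and in 3.17% of all promoters, CTTTGAA (TCF/LEF) in 0 of 9 and 4.46%, and CACCC (KLF) in 6 of 9 and 52.0%. Motifs were read on both strands, and a match is a description of the letters only.

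Genes linked to the family by function were read over all T cells, where 28% of all genes were called higher and 26.4% lower, with a median log2 difference of -0.02. Of 9 BCL2 family genes, which control the mitochondrial step of cell death, 5 were higher and 3 lower in sgArid1a, with a median log2 difference of 0.20. Bbc3 (PUMA, a trigger of cell death) had 15.1 and 16.9 CPM in sgArid1a, against 30.9 and 32.7 CPM in sgScr (log2 -0.95). Bcl2, which protects resting T cells, was at -0.50, while Bax (0.48) and Bak1 (0.44), which open the mitochondrial membrane, were higher. With cycling-like cells left out, 4 BCL2 family genes were higher and 3 lower. Bcl2 was then at -0.25, Bbc3 at -0.81, Bax at 0.41 and Bak1 at 0.37. Of 14 autophagy and lysosome genes 5 were higher and 3 lower, with a median of 0.08, which is near the shares of all genes. Gabarapl1 (0.92) and Atg3 (0.26) were higher and Ulk1 (-0.56) and Lamp1 (-0.30) lower. Without sgScr replicate 1, and likewise without sgScr replicate 2, 4 of these 14 genes were called in either direction. Without cycling-like cells 4 autophagy genes were higher and 1 lower.

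Of 15 genes of T cell quiescence and survival, 0 were higher and 13 lower, with a median of -0.37. Il7r, the survival receptor of resting T cells, had 328 and 283 CPM in sgArid1a, against 721 and 691 CPM in sgScr (log2 -1.18), and Klf3 (-1.34), Klf2 (-1.10) and Foxp1 (-0.78) were lower too. The falls of these 4 genes were larger than that of any Gimap gene. Of 12 transcription factors of lymphoid promoters 0 were higher and 9 lower, with a median of -0.57, led by Lef1 (-1.24), Tcf7 (-0.98), Klf2 and Foxo1 (-0.77). These 2 lists share Klf2 and Foxo1 and hold markers of the naive state. Naive/central memory-like cells were fewer in sgArid1a as given above, and their part in these levels was not tested. Without cycling-like cells 13 and 8 genes of the 2 lists were lower.

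Another family of GTPases, those induced by interferon, had 10 of 16 tested genes higher and 2 lower, with a median of 0.26. Gbp6 had 41.6 and 47.4 CPM in sgArid1a, against 27.5 and 27.7 CPM in sgScr (log2 0.72), and Igtp (0.44), Gbp3 (0.47) and Irgm1 (0.36) were higher too. Without sgScr replicate 1, and likewise without sgScr replicate 2, 7 of the 16 were called in either direction. Without cycling-like cells 13 were higher and 0 lower. Interferon-stimulated-like cells were 8.19 and 10.1% of T cells in sgArid1a and 2.41 and 2.24% in sgScr, and their part in these levels was not tested.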

How the data were processed

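UMI counts per gene and cell were deposited by the authors for 4 samples, unnormalized, as whole numbers. Per the file headers they were made with Cell Ranger 6.0.1, while mm10, Seurat and another version, Cell Ranger 3.0.2, stand in the submitters' processing notes, a difference that was not settled. Groups came from the sample titles. The 8 members, the lists and the tests were chosen with earlier results of these data known.

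Of 39473 barcodes, 38316 with 500 genes or more and a mitochondrial share up to 10% entered. Cells were clustered on 2000 variable genes without Gimap genes and receptor segments (scanpy 1.11.5, 30 components, 15 neighbours, Leiden resolution 0.8, seed 1). A cluster of 55 cells with B cell, myeloid and MHC class II genes was left out, though it also held T cell RNA. Names were given by hand from listed markers after clustering. Doublets were not removed and no caller was run here. Cells showing 2 or more Trbv segments, each with 2 UMIs or more, were 6.73 and 13.2% in sgArid1a and 11.1 and 10.6% in sgScr.

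Counts were summed per sample and tested with edgeR 4.0.16 (TMM, filterByExpr, quasi-likelihood test, R 4.3.3), with p-values adjusted over all genes by the Benjamini-Hochberg method. An exact permutation test of 2 against 2 samples cannot give a p below 0.333. The test was also run on simulated counts with known changes, and the result of that run is not given here. Alternatives were DESeq2 1.42.0, other normalizations, filters and cell sets, thinning, other Leiden resolutions and leaving out each sample. The pseudocount of the common mix was 1 CPM, which understates ratios of low genes. Genes named were all members, Arid1a, up to 5 called neighbours, up to 4 genes of each list by smallest p, and the 5 genes most like the family across states. Positions were joined by Ensembl identifier to GENCODE M21, and promoters are from RefSeq. The B cell marker list is not reported here.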

Additional observations from a re-analysis of the deposited data

Results flagged for a closer look

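Between cell states the group difference, sgArid1a over sgScr, of several members differed by an interaction test chosen after the values were seen. Naive/central memory-like cells minus exhausted-like cells gave a log2 difference of 0.49 for Gimap7, 0.38 for Gimap6, 0.31 for Gimap3, 0.27 for Gimap1 and 0.25 for Gimap5. Over DESeq2 and the edgeR fits, those without 1 sample included, the adjusted p-values reached 0.000738 for Gimap7, 0.0492 for Gimap6, 0.0519 for Gimap3, 0.141 for Gimap1 and 0.284 for Gimap5. Naive/central memory-like minus cycling-like cells gave 0.49 for Gimap7 and 0.33 for Gimap6, with adjusted p-values up to 0.00551 and 0.149 over the same alternatives. Both comparisons use the naive class, and cycling-like cells also raised exhausted markers, so they are not independent. The planned comparison, with memory/transitional-like cells, called no member.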

How the results depend on the processing

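Over all T cells 1 member was higher and 4 lower. The lower count was 2 without cycling-like cells, 2 without Trbv13-1 and Trbv20 cells, and 0 in thinned cells. Without both cycling-like and exhausted-like cells it was 0, while 2 members were higher and Gimap3 reversed to 0.070. Shares of all genes called over all T cells were counted only for the main fit and without cycling-like cells. Within classes the higher calls ranged from 1 to 7 and the lower calls from 0 to 5 when 1 sample was left out, and DESeq2 called 1 lower. DESeq2 called 3 members in the comparison of naive with exhausted-like cells and 1 in that with cycling-like cells, and leaving out 1 sample gave 3 to 5 and 1 to 2. The median common-mix log2 ratio of -0.05 was -0.031 at Leiden resolution 0.4 and -0.020 at 1.2. The log2 ratio of the summed members in naive/central memory-like over cycling-like cells, 0.54, was 0.37 at resolution 0.4 and 0.40 in thinned cells. Leaving out 1 sample gave 4 to 10 autophagy genes called and 7 to 12 interferon-inducible GTPases called. The share of cells with any member differed by -1.22 percentage points in thinned and -0.80 in unthinned cells. Unthinned, the groups overlapped, at 97.5 and 99.4% in sgArid1a and 99.2 and 99.3% in sgScr. The lowest share was that of sgArid1a replicate 1, the library of lowest median depth. A fit with the replicate number as a block called 1 member higher and 4 lower over all T cells, and 3 higher and 3 lower within classes. Same-numbered samples did not deviate together (r = -0.04 over 12792 genes), so the numbers were not used to pair them. At other Leiden resolutions the tests within classes were rerun for naive/central memory-like cells only, and the planned median over clusters of the differences within them was not run. With 2 samples a group, a fit without 1 of them assumes that the lone sample varies like the others. In clusters with under 500 cells the UMIs of Gimap8 and Gimap9 limit precision.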
